A study of Mus musculus with 6 samples.

Results

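A set of 7 miRNAs of leukocytes and of NF-κB signalling were looked for among the 810 miRNAs counted in small extracellular vesicles (sEV) of cultured mouse cochleae, and 5 of the 7 have a row in the deposited table of read counts. They are mmu-miR-146a-5p, mmu-miR-146b-5p, mmu-miR-150-5p, mmu-miR-155-5p and mmu-miR-223-3p. The 7 were chosen by name, though with earlier results of these data known. Both arms of mmu-miR-142a, the miRNA shared by most blood cell lineages, have no row and are not analysed here. The sEV came from the medium of cochlear explants, that is cultured sensory epithelia taken from the inner ears of ICR mice at postnatal day 3 and freed of the spiral ganglion. The explants received 50 µM cisplatin (Cis-sEV, 3 libraries) or an equal volume of PBS (Ctrl-sEV, 3 libraries) for 48 h, in medium whose serum had been depleted of sEV, and neither group carried a genetic change. Each library pooled the sEV of about 80 explants, so that vesicles of every cell type in the explant are mixed in it, and more vesicles from a cell type cannot be told apart from more of a miRNA per vesicle. The comparison asks whether the vesicles of cisplatin-treated explants carried a different load of inflammation-linked miRNAs.

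miRNAs are short RNAs that guide Argonaute proteins to messenger RNAs, mostly through the seed at bases 2 to 8. miR-146a and miR-155 are classic products of NF-κB activity in macrophages: miR-146a dampens Toll-like receptor signalling by acting on Traf6 and Irak1, whereas miR-155 favours the inflammatory state, in part by lowering Socs1 and Inpp5d. miR-150 is abundant in mature lymphocytes, where it restrains Myb, and miR-223 is abundant in neutrophils and other myeloid cells. The cochlea holds resident macrophages, and these cells take part in its response to ototoxic drugs.

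The mature sequences show which members could exchange reads or targets. They are the deposited ones, written 5′ to 3′ with the seed in capitals, and the 4 that have an entry in RefSeq (GRCm38.p6) are identical to it.
mmu-miR-146a-5p: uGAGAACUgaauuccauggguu
mmu-miR-146b-5p: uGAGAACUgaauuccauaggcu
mmu-miR-150-5p: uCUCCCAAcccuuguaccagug
mmu-miR-155-5p: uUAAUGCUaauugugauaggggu
mmu-miR-223-3p: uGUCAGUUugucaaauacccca
miR-146a-5p and miR-146b-5p share their seed and 20 of 22 bases, and differ by G18A and U21C (miR-146a-5p base first, positions counted from the 5′ end). Both differences lie near the 3′ end, so a read with errors or trimming there may be assigned to either. No other miRNA of the table has the seed of a member. The sequence closest to miR-150-5p differs at 9 positions, to miR-223-3p at 10 and to miR-155-5p at 11.

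In GENCODE M21 (GRCm38), the gene of miR-146a, Mir146, lies on the minus strand of chromosome 11 from 43374397 to 43374461 and overlaps no other gene. Mir146b (chromosome 19, 46342762 to 46342870) lies in an intron of the protein-coding gene Mfsd13a. Mir150 (chromosome 7, 45121757 to 45121821) overlaps no other gene. Mir155 (chromosome 16, 84714140 to 84714204) lies in an exon of its host transcript Mir155hg, a long non-coding RNA. Mir223 is on the X chromosome, from 96242817 to 96242926, in an exon of the gene F630028O10Rik, annotated on the same strand. The last 4 genes are on the plus strand, and no 2 of the 5 are neighbours.

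The Cis-sEV libraries held 1722359 to 1794175 miRNA reads and the Ctrl-sEV libraries 528952 to 718597. Levels are given as CPM, counts per 1e+06 miRNA reads of the library. A read spans a whole mature miRNA, so CPM was not divided by length. The highest level that a count of 0 allows (3 reads) was between 1.67 and 1.74 CPM for the Cis-sEV libraries, and between 4.17 and 5.67 CPM for the shallower Ctrl-sEV libraries. In edgeR the biological coefficient of variation came to 0.370 in Cis-sEV and 1.59 in Ctrl-sEV. For the group comparison, 353 miRNAs had enough reads and entered edgeR's quasi-likelihood fit, with TMM scaling and Benjamini-Hochberg adjustment, and "called" means an adjusted p no higher than 0.05 with a log2 fold change of 1 or more in size. The test called 30.0% of the tested miRNAs, 23.5% as higher and 6.52% as lower in Cis-sEV.

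None of the tested leukocyte and inflammation miRNAs was called. Of the 5 with a row, 4 had enough reads to be tested, and edgeR called 0 of the 4, with 0 at an unadjusted p under 0.05. DESeq2 and limma-voom also called 0 of the members they tested, again with 0 at an unadjusted p under 0.05. limma-voom with a separate weight for each group called 0 of 4, with 2, miR-146b-5p and miR-155-5p, at an unadjusted p under 0.05. The 4 log2 fold changes ran from -0.86 to 1.88 with a median of -0.37, beside a median of 0.44 over all 353. In CPM, 2 of the 4 (miR-146a-5p and miR-155-5p) had every Cis-sEV library above every Ctrl-sEV library, as had 45.3% of the tested miRNAs, and 0 the reverse, as had 8.78%. After TMM scaling the groups overlapped for all 4, whereas Cis-sEV lay wholly above for 37.7% of the tested miRNAs and wholly below for 12.5%.

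All 5 together made up 0.250, 0.262 and 0.253% of all reads in Cis-sEV, and 0.191, 0.249 and 0.219% in Ctrl-sEV, that is 0.255 ± 0.00674% and 0.220 ± 0.0289% (SD, n = 3). The groups did not overlap in this share, narrowly so, but the order turned when the 10 most abundant miRNAs were left out of the total. The share was then 0.445, 0.482 and 0.456% in Cis-sEV and 0.501, 0.587 and 0.526% in Ctrl-sEV, with Ctrl-sEV wholly above.

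**Figure D1:**
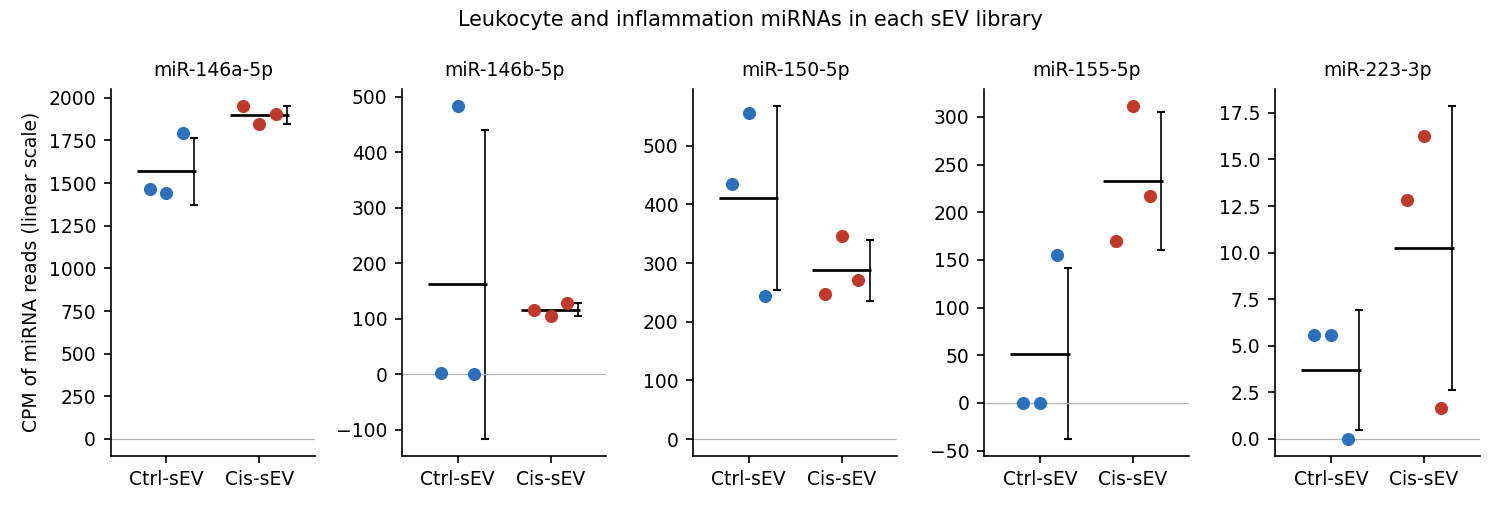
Level of each of the 5 miRNAs in every library, in CPM of miRNA reads on linear axes that differ between panels and run below 0 where the SD exceeds the mean. Points are libraries, lines are means and error bars SD (n = 3). miR-146a-5p was the highest in both groups, and the Ctrl-sEV levels of miR-146b-5p and miR-155-5p came almost wholly from 1 library each.

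The members differed widely in level. miR-146a-5p, the feedback inhibitor of Toll-like receptor signalling, made up 74.7% of the members' reads in Cis-sEV and 69.8% in Ctrl-sEV. In Cis-sEV its mean level was 6.61 times that of miR-150-5p, the next in order, and all its libraries lay above those of miR-150-5p. miR-150-5p and miR-155-5p overlapped in Cis-sEV, miR-155-5p lay above miR-146b-5p in every library by a mean factor of 2.00, and miR-223-3p was lowest. In Ctrl-sEV miR-146a-5p again lay above the rest in every library, 3.81 times miR-150-5p, while the libraries of miR-150-5p, miR-146b-5p, miR-155-5p and miR-223-3p each overlapped with those of the next in order.

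miR-146a-5p had 3494, 3180 and 3423 reads in Cis-sEV, against 792, 1037 and 950 in Ctrl-sEV. This was 1950, 1846 and 1908 CPM, a mean of 1902 ± 52.4 (SD, n = 3), against 1467, 1443 and 1796 CPM, a mean of 1569 ± 197 (SD, n = 3). The lowest Cis-sEV library lay just above the highest Ctrl-sEV library. It ranked 60th among all miRNAs in Cis-sEV and 56th in Ctrl-sEV, next below miR-181b-5p and miR-204-3p. With TMM scaling the groups overlapped, with Cis-sEV between 1617 and 1756 and Ctrl-sEV between 1448 and 1961. The edgeR log2 fold change was -0.08 ± 0.20 (SE, adjusted p = 0.850), with a 95% interval from -0.55 to 0.40, that is a ratio from 0.682 to 1.32. A doubling or a halving of miR-146a-5p thus lies outside the interval of this fit. DESeq2 gave -0.14 with a larger standard error of 0.54, so the limit is that of the edgeR fit. The edgeR standard error of miR-146a-5p was the 29th smallest of the 353. Scaled by total miRNA reads the log2 fold change was 0.28, and over all 18 alternatives it stayed between -0.30 and 0.28 and was never called. The scale moves the median of all tested miRNAs as well, from 0.44 with TMM to 0.79 with total miRNA reads, and miR-146a-5p lay 0.52 below the median with TMM.

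The pattern of miR-146a-5p over the 6 libraries was closest to that of mmu-miR-26a-5p, a widely expressed miRNA. The mean absolute difference between their centred log2(CPM + 1) profiles, with TMM scaling, was 0.0750. Next came mmu-miR-9-5p at 0.113 and mmu-miR-669c-5p at 0.121. None of the 3 was called by edgeR, with log2 fold changes from -0.03 to 0.15 and adjusted p from 0.705 to 0.949.

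miR-146b-5p, encoded on another chromosome but with the same seed, had 208, 180 and 230 reads in Cis-sEV and 1, 348 and 0 reads in Ctrl-sEV. Its level was even in Cis-sEV, at 116, 105 and 128 CPM, and ran from 0 through 1.85 to 484 CPM in Ctrl-sEV. The single Ctrl-sEV library with many reads lay above all Cis-sEV libraries, while the other two lay far below them. The edgeR log2 fold change was -0.67 ± 2.01 (SE, adjusted p = 0.865), with a 95% interval from -5.42 to 4.09. At the mean Cis-sEV level, depth alone would give 62.8 and 61.5 reads in Ctrl-sEV replicates 1 and 3, a figure that leaves out the spread between libraries. Why these replicates held so few was not tested. Against these replicates the pooled ratio was 124, with a 95% counting interval (Clopper-Pearson) from 22.3 to 4923, and against Ctrl-sEV replicate 2 it was 0.240 (0.210 to 0.275). The Ctrl-sEV libraries were split by their own counts, so these ratios describe the split and do not test an effect of cisplatin. Without Ctrl-sEV replicate 2, edgeR called miR-146b-5p higher in Cis-sEV, at 6.50 ± 1.31 on the log2 scale (SE, edgeR adjusted p = 0.0305). In that fit, with 1 and 0 reads left in Ctrl-sEV, it entered the test only through its Cis-sEV reads and could only come out higher. Without Ctrl-sEV replicate 1 or 3 the log2 fold change was -1.27. The 2 limma-voom fits also turned the direction, at 4.41 and 3.87 (adjusted p = 0.156 and 0.0940), and over all alternatives the adjusted p ran from 0.0305 to 0.922.

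The share of miR-146b-5p among the reads of both miR-146 guides was 5.62, 5.36 and 6.30% in the Cis-sEV libraries. In the Ctrl-sEV libraries it was 0.126% (95% Wilson interval 0.0223 to 0.711%), 25.1% (22.9 to 27.5%) and 0 of 950 reads, which allows a share of up to 0.316%. The means were 5.76 ± 0.485% and 8.42 ± 14.5% (SD, n = 3), and the groups were not separated (two-sided exact permutation test, p = 1.0, where the smallest p that 3 against 3 libraries allow is 0.1). The Cis-sEV libraries agreed within 1 percentage point, and the Ctrl-sEV libraries lay on either side of them. The sum of both guides was steadier, at 2067, 1951 and 2036 CPM in Cis-sEV and 1469, 1927 and 1796 CPM in Ctrl-sEV, with -0.10 ± 0.16 on the log2 scale (SE, edgeR adjusted p = 0.726).

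**Figure D2:**
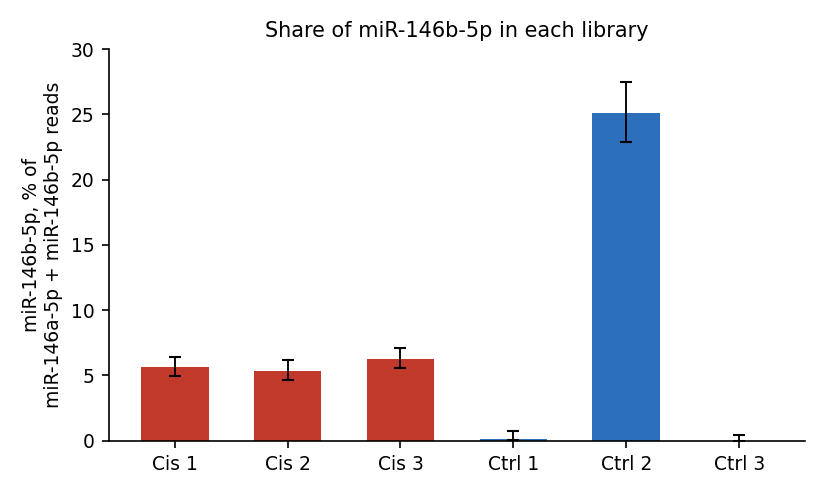
Share of miR-146b-5p, in percent, among the reads of miR-146a-5p and miR-146b-5p in each library, with 95% Wilson intervals that cover counting error only. The 3 Cis-sEV bars stand at 5.36 to 6.30%, and the Ctrl-sEV bars stand at 0.126%, 25.1% and 0%.

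miR-155-5p, the inflammatory counterpart of miR-146a, had 305, 537 and 389 reads in Cis-sEV and 0, 0 and 82 reads in Ctrl-sEV. This was 170, 312 and 217 CPM, a mean of 233 ± 72.1 (SD, n = 3), against 0, 0 and 155 CPM. The groups were separate in CPM, but with TMM scaling the groups overlapped, since Ctrl-sEV replicate 3 had 169 and Cis-sEV replicate 1 had 153. The edgeR log2 fold change was 1.88 ± 2.08 (SE, adjusted p = 0.618), with a 95% interval from -3.04 to 6.80. At the mean Cis-sEV level, depth alone would give 126 and 167 reads in Ctrl-sEV replicates 1 and 2, which held none, and 123 in replicate 3. Taking 3 reads over replicates 1 and 2 as the floor, Cis-sEV lay at least 97.3-fold above these libraries, and 1.50-fold above replicate 3 (95% counting interval 1.20 to 1.89). Here too the Ctrl-sEV libraries were split by their own counts. These figures leave out the spread between libraries and do not test an effect of cisplatin. Without Ctrl-sEV replicate 3 it was called (edgeR adjusted p = 0.00950). In that fit all Ctrl-sEV reads are 0, so that it could only come out higher, and the fitted value of 11.22 is no bound. The fitted log2 fold change was positive in all 18 alternatives, from 1.18 to 11.22, and the adjusted p ran from 0.00950 to 0.853. The alternatives refit the same counts, so their shared sign is no separate evidence.

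The precursor of miR-155 is shown because nearly all its reads came from one arm. It is printed with both mature arms in capitals, the 5p arm first.
mmu-mir-155: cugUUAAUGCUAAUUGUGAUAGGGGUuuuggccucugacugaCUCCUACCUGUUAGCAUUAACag
In Cis-sEV 1231 reads fell on the 5p arm and 5 on the 3p arm, 99.6% on the 5p arm (95% Clopper-Pearson interval 99.1 to 99.9%). In Ctrl-sEV all 82 reads fell on the 5p arm. The 5 reads of the 3p arm came from Cis-sEV replicate 3.

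Reads that were absent in some Ctrl-sEV libraries were common at the level of these miRNAs. Of the 70 other miRNAs whose mean Cis-sEV level lay within 2-fold of that of miR-146b-5p, 43 (61.4%) had 0 reads in at least 1 Ctrl-sEV library, and 37 had at most 1 read in one Ctrl-sEV library and at least 50 in another. Of the 68 within 2-fold of miR-155-5p, 33 (48.5%) had such a 0 and 28 had such a split. Near the more abundant miR-146a-5p this was so for 1 of 37 and 3 of 37. The uneven Ctrl-sEV counts of miR-146b-5p and miR-155-5p were thus shared by many miRNAs of their level.

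miR-150-5p, the miRNA of mature lymphocytes, had 442, 596 and 486 reads in Cis-sEV and 235, 399 and 129 in Ctrl-sEV. This was 247, 346 and 271 CPM, a mean of 288 ± 51.8 (SD, n = 3), against 435, 555 and 244 CPM, a mean of 411 ± 157 (SD, n = 3). In CPM, Ctrl-sEV replicates 1 and 2 lay above all Cis-sEV libraries and Ctrl-sEV replicate 3 lay just below them, so that the groups overlapped. They overlapped with TMM scaling too, where Ctrl-sEV had 572, 557 and 266 and Cis-sEV had 222, 315 and 230. The edgeR log2 fold change was -0.86 ± 0.49 (SE, adjusted p = 0.254), with a 95% interval from -2.01 to 0.29. It was negative in all 18 alternatives, from -1.14 to -0.52, with adjusted p from 0.0591 to 0.570, and it was called in none. The lowest adjusted p was that without Ctrl-sEV replicate 3.

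The miRNA with the pattern most like that of miR-150-5p over the 6 libraries was mmu-miR-451a, the abundant miRNA of red blood cells, with a mean absolute difference of 0.189 on the centred log2(CPM + 1) scale. It was followed by mmu-miR-301a-3p at 0.236 and mmu-let-7a-5p at 0.238. miR-451a had 1248, 1254 and 1081 CPM in Cis-sEV and 2168, 2733 and 1338 CPM in Ctrl-sEV, with Ctrl-sEV replicate 2 highest and replicate 3 lowest of their group, as for miR-150-5p. With TMM scaling, on which the patterns were compared, Ctrl-sEV replicate 1 was highest for both. In a list of 8 erythrocyte and serum miRNAs, 7 have a row and 5 were tested, of which edgeR called 3 lower in Cis-sEV and 0 higher, with a median log2 fold change of -2.78. Of all tested miRNAs, 6.52% were called lower and 23.5% higher. The called ones were miR-122-5p, the liver miRNA found in serum, at -2.78 (standard error 0.21, adjusted p = 0.00110), miR-486a-5p at -3.47 (0.72, adjusted p = 0.0111) and miR-451a at -1.15 (0.30, adjusted p = 0.0219). The reads of miR-486a-5p are uncertain, since miR-486b-5p has the same mature sequence and its own row. miR-122-5p was called in all 18 alternatives, miR-486a-5p in 16 and miR-451a in 7. miR-451a was not called without any 1 of the Cis-sEV libraries or without Ctrl-sEV replicate 1 or 2, nor on total miRNA reads. The summed level of the list was 5418 to 6762 CPM in Cis-sEV and 10067 to 13576 CPM in Ctrl-sEV. Within this sum, miR-122-5p alone had 986 to 1451 CPM in Cis-sEV and 6108 to 6797 CPM in Ctrl-sEV. Of the 2 tested but not called, miR-486b-5p was at -3.31 (edgeR adjusted p = 0.0618). The other, miR-16-5p, lay the other way at 0.31 (edgeR adjusted p = 0.525). It was the most abundant of the list in Cis-sEV, at 3292, 3086 and 4153 CPM, against 1212, 3363 and 2318 CPM in Ctrl-sEV. Of the red blood cell miRNA miR-144-3p, 2 reads were found, both in Cis-sEV. The part of blood or serum miRNAs in the level of miR-150-5p was not tested.

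miR-223-3p, the myeloid miRNA, was near the limit of detection. It had 23, 28 and 3 reads in Cis-sEV, that is 12.8, 16.3 and 1.67 CPM, and 3, 4 and 0 reads in Ctrl-sEV, that is 5.56, 5.57 and 0 CPM. The groups overlapped, since Cis-sEV replicate 3 lay below 2 of the Ctrl-sEV libraries. It did not reach the minimum level in 3 libraries and was not tested. The pooled ratio of 54 to 7 reads was 2.60 in CPM, with a 95% counting interval from 1.18 to 6.77, which leaves out the spread between libraries. In the 6 alternatives that kept it, the log2 fold change was 0.63 to 1.55 with adjusted p from 0.485 to 0.683. The Ctrl-sEV libraries held at most 4 reads each, close to the floor of 3. The precursor, with both arms in capitals, carries the 3p arm last.
mmu-mir-223: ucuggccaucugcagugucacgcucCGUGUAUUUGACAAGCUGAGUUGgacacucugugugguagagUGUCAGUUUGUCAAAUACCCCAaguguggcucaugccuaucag
The 5p arm had 2 reads in Cis-sEV and 1 in Ctrl-sEV, so that 96.4% of the reads in Cis-sEV lay on the 3p arm (95% Clopper-Pearson interval 87.7 to 99.6%).

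**Figure D3:**
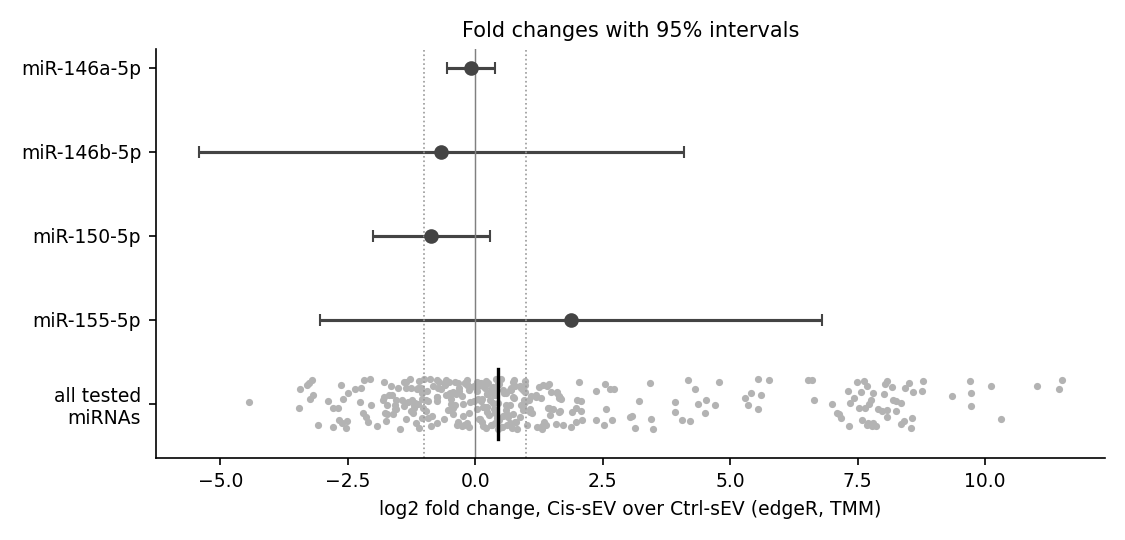
Log2 fold changes between Cis-sEV and Ctrl-sEV from edgeR for the 4 tested members (points, with 95% intervals) and, in the lowest row, for all 353 tested miRNAs (grey dots, spread vertically for legibility; the bar is their median, 0.44). Dotted lines mark a log2 fold change of 1 in either direction. All 4 intervals include 0, and those of miR-146b-5p and miR-155-5p are the widest.

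**Figure D4:**
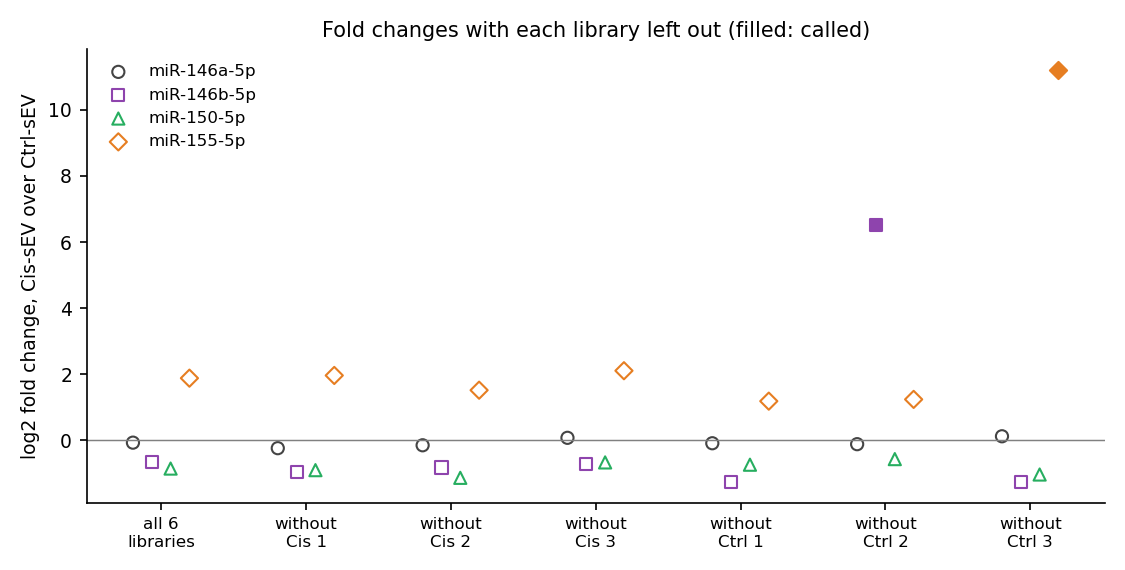
Log2 fold change of the 4 tested members with all 6 libraries and with each library left out, with filled symbols for called values. miR-146a-5p and miR-150-5p kept to -0.25 to 0.12 and -1.14 to -0.58, miR-146b-5p was called without Ctrl-sEV replicate 2, and miR-155-5p was called without Ctrl-sEV replicate 3, where all Ctrl-sEV reads are 0 and the fitted value is no bound. Without Ctrl-sEV replicate 2, miR-146b-5p had 1 and 0 reads in Ctrl-sEV, so that neither call could have come out lower.

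The other arms of the member genes added nothing that could be tested. Of 5 such arms, only miR-155-3p and miR-223-5p have a row, and neither had enough reads.

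Among other miRNAs known to be induced in activated macrophages, calls went in both directions, and most tested fold changes were positive. Of 17 listed, 15 have a row and 12 were tested. edgeR called 2 higher and 1 lower in Cis-sEV, with 9 not called. Over all tested miRNAs, 23.5% were called higher and 6.52% lower. The median log2 fold change of the 12, 0.44, was the same as that of all tested miRNAs. Both of the higher ones were arms of miR-212, which is transcribed together with miR-132 and responds to CREB signalling. miR-212-3p had 27, 72 and 117 reads in Cis-sEV and 0, 1 and 0 in Ctrl-sEV, a ratio of 72.7 with a 95% counting interval from 12.9 to 2886 (adjusted p = 0.0152). Its partner arm miR-212-5p, found by 130, 30 and 19 reads in Cis-sEV only, was at least 20.1-fold higher, with a floor of 3 reads for the 3 Ctrl-sEV libraries together (adjusted p = 0.0189). Both arms entered the test only through their Cis-sEV reads and so could only come out higher. Their Cis-sEV levels lay between those of miR-146b-5p and miR-223-3p. Near these members, 61.4% and 93.3% of other miRNAs had 0 reads in at least 1 Ctrl-sEV library. miR-212-3p was called in 14 of 18 alternatives and miR-212-5p in 11 of the 16 that tested it, and neither with no filter or with limma-voom. miR-212-3p was not called without Cis-sEV replicate 1, nor miR-212-5p without Ctrl-sEV replicate 1 or 2. The 5p arm of the linked miR-132 was not called, with 124, 78 and 120 reads in Cis-sEV and 0, 68 and 0 in Ctrl-sEV. miR-125a-5p, which acts on the NF-κB regulator Tnfaip3, was the one called lower, at -1.70 ± 0.38 on the log2 scale (SE, edgeR adjusted p = 0.0140). Its level was 613, 630 and 680 CPM in Cis-sEV, below the 708, 2448 and 1962 CPM of Ctrl-sEV. It was called in 10 of 18 alternatives, and not without Cis-sEV replicate 2 or 3 or without Ctrl-sEV replicate 2 or 3. miR-9-5p and miR-21a-5p, 2 other miRNAs induced by inflammatory signals, had log2 fold changes of 0.15 and 0.27 and were not called. Nor were miR-9-3p at 2.37 (edgeR adjusted p = 0.428) and miR-125b-5p at 0.94 (edgeR adjusted p = 0.0298, short of the fold required). miR-125b-5p stood at 18801, 17105 and 19952 CPM in Cis-sEV against 4289, 11817 and 7607 CPM in Ctrl-sEV. miR-99b-5p lay the other way at -0.51 (edgeR adjusted p = 0.0349) and also fell short of the fold required.

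Among 12 other miRNAs enriched in leukocytes, 11 have a row and 10 were tested, of which edgeR called 0 higher and 2 lower, with a median log2 fold change of 0.16. Of all tested miRNAs, 23.5% were called higher and 6.52% lower. Called lower were miR-92a-3p at -1.43 (standard error 0.18, adjusted p = 0.00502), a member of the miR-17-92 cluster that drives proliferation of lymphocytes and other cells, and miR-181b-5p at -1.36 (0.22, adjusted p = 0.00551). miR-92a-3p was called in all 18 alternatives and miR-181b-5p in 17. miR-17-5p, of the same cluster as miR-92a-3p, lay the other way and was not called, at 4.53 (1.62, adjusted p = 0.0720). It had 92, 92 and 108 reads in Cis-sEV and 0, 0 and 3 in Ctrl-sEV. miR-17-5p thus entered the test only through its Cis-sEV reads and could only come out higher. Also not called were miR-24-3p (0.97), miR-27a-3p (0.78) and miR-191-5p (0.68) on the higher side. On the lower side were miR-181a-5p (-0.61), miR-29a-3p (-0.26) and miR-342-5p (-0.13). Both lists hold miRNAs that tissue cells of the cochlea also express, and miR-181a-5p and miR-99b-5p were among the most abundant of all. miR-342-3p, of lymphocytes and macrophages, stood at 2642, 2054 and 2849 CPM in Cis-sEV against 1263, 1701 and 1367 CPM in Ctrl-sEV, and was not called at 0.46 (0.19, adjusted p = 0.115). The macrophage miRNA miR-511-3p had 41 reads, all in Cis-sEV replicate 3.

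Markers of other cell types of the tissue were measured beside the members. Their counts of calls stand beside shares of 23.5% higher and 6.52% lower over all tested miRNAs. The 3 hair cell miRNAs of the miR-183 cluster summed to 59073 to 81525 CPM in Cis-sEV and 54984 to 55757 CPM in Ctrl-sEV, with miR-96-5p called higher at 2.08 ± 0.47 on the log2 scale (SE, edgeR adjusted p = 0.0142). It was called in 13 of 18 alternatives, and not with DESeq2, with either limma-voom fit or without Ctrl-sEV replicate 1 or 2. The other two did not pass, with miR-183-5p, the most abundant of the cluster, at -0.49 (adjusted p = 0.0419, short of the fold required) and miR-182-5p at 0.18 (adjusted p = 0.782). Of 5 epithelial miRNAs 2 were called higher, miR-200a-3p and miR-200b-3p, and of 3 tested neuronal ones 1, miR-124-3p, with 0 reads in Ctrl-sEV. Like the arms of miR-212, miR-124-3p entered the test only through its Cis-sEV reads and could only come out higher. miR-200a-3p was called in 8 of 18 alternatives and miR-200b-3p in 12, and neither with DESeq2, with no filter, without Cis-sEV replicate 3 or without Ctrl-sEV replicate 1 or 2. Calls were also lost without Cis-sEV replicate 2 for miR-200a-3p and without Cis-sEV replicate 1 for miR-200b-3p. Of 2 endothelial miRNAs, miR-126a-3p was called lower at -1.28 (0.18, adjusted p = 0.00523), in 17 of 18 alternatives and not on total miRNA reads. The opposite arm, miR-126a-5p, lay the other way and was not called, at 4.17 (adjusted p = 0.0759), with 94, 51 and 84 reads in Cis-sEV and 0, 0 and 3 reads in Ctrl-sEV. miR-126a-5p too entered the test only through its Cis-sEV reads and could only come out higher. Of 4 mesenchymal ones 0 were called. miR-199b-3p, the most abundant of these in Cis-sEV but not in Ctrl-sEV, has the same mature sequence as miR-199a-3p, so that its own level is uncertain. The 5 leukocyte and inflammation miRNAs summed to 2496 to 2625 CPM in Cis-sEV and 1910 to 2488 CPM in Ctrl-sEV.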

How the data were processed

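Small RNA of 3 Cis-sEV and 3 Ctrl-sEV libraries was analysed. The authors selected RNA of miRNA length on a gel, sequenced it on the DNBSEQ platform, used Bowtie2 against GRCm38.p6 for alignment and AASRA and cmsearch for annotation, each read counting for one RNA class only, and deposited read counts for each mature miRNA, with no normalization. Their tool versions are not given in the sources used here. The authors also deposited a mean per group, recorded as a signal and not used, and 0 columns of per-sample values were left out.

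The 7 members, the other lists and the named miRNAs were chosen with earlier results of these data known. Every member is described. From the other lists, called miRNAs (at most 4 by level) or, with 0 called, the most abundant one are named. For members with reads in all 6 libraries, the 3 miRNAs with the closest patterns are named, and neighbours in level may be. Further list members were named after their values were seen. Counts were fitted with edgeR 4.0.16 in R 4.3.3 (glmQLFit and glmQLFTest, TMM factors of 0.762 to 1.18), adjusted by Benjamini-Hochberg over all tested miRNAs. The filter was filterByExpr, with at least 15 reads over all libraries. It also asked for the CPM that 10 reads make at the median library size, in as many libraries as the smaller group holds. The standard error is the log2 fold change divided by the root of its F statistic. Alternatives used DESeq2 1.42.0 and limma 3.58.1. Scripts were tested on simulated counts. The planned test of the arms of miR-142a could not be made.

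The study describes the libraries as biological replicates, and the labels do not say that they came from separate cultures, so p-values measure only the spread between these libraries. Libraries of a group differed by more than sampling noise (chi-square over its degrees of freedom, 66.3 to 115). Reads copied from one molecule by PCR were not told apart, so intervals and floors cover counting error only.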

Additional observations from a re-analysis of the deposited data

How the results depend on the processing

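No member was called with all 6 libraries under any alternative, and 1 member was called without Ctrl-sEV replicate 2 (miR-146b-5p) and 1 without Ctrl-sEV replicate 3 (miR-155-5p), a range of 0 to 1. In both of these fits the remaining Ctrl-sEV libraries held at most 1 read each, so that the member could only come out higher. DESeq2 gave no adjusted p for miR-146b-5p. The miRNAs called higher numbered 83, but 30 with limma-voom, 13 with the replicate block and 125 with a minimum of 1 CPM in 3 libraries; those called lower numbered 23, but 13 with limma-voom, 11 with the replicate block, 11 on total miRNA reads and 14 with no filter. With each library left out they ranged from 40 to 144 and from 11 to 30. The cause of these moves was not tested. The log2 fold change of miR-146a-5p turned to 0.28 on total miRNA reads, to 0.07 without Cis-sEV replicate 3 and to 0.12 without Ctrl-sEV replicate 3, with a range of -0.25 to 0.12. That of miR-146b-5p turned to 4.41 with limma-voom, 3.87 with limma-voom with group weights (chosen after seeing the data), 4.33 with the replicate block (adjusted p = 0.433) and 6.50 without Ctrl-sEV replicate 2, with a range of -1.27 to 6.50. miR-150-5p kept its direction throughout. With the replicate block miR-155-5p was at 6.83 (adjusted p = 0.219). The block also ended the calls of both miR-212 arms, miR-124-3p, miR-200a-3p, miR-125a-5p, miR-451a and miR-486a-5p. Replicate numbers were not treated as pairs: same-numbered libraries correlated at -0.05, -0.18 and -0.01 in their deviations from the group means, and 0 of 3 Cis-sEV libraries correlated best with its own number. The difference in the share of miR-146b-5p turned from -2.66 to 5.69 percentage points without Ctrl-sEV replicate 2, with a range of -6.87 to 5.69. The share of reads on the members was 0.0647% in Cis-sEV and 0.0629% in Ctrl-sEV without miR-146a-5p, and 0.461% and 0.538% without the 10 most abundant miRNAs in the total; with each library left out it was 0.251 to 0.258% and 0.205 to 0.234%.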
